A study of Mus musculus with 4 samples.

Results

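The genes described here are 10 regulators of entry into and exit from mitosis: the transcription factor gene Foxm1, the cyclin genes Ccna2, Ccnb1 and Ccnb2, the kinase genes Cdk1, Plk1, Aurka and Aurkb, and the genes of 2 factors that work with the anaphase-promoting complex (APC/C), Cdc20 and Ube2c. They were chosen by name, with earlier results of these data known. Each of the 10 matched 1 row among the 23970 gene symbols of the expression table. RNA was sequenced from keratinocytes isolated from newborn mice and grown at passage 0 in low-calcium medium, before they became confluent, on J2-3T3 feeder cells, a mouse fibroblast line kept from dividing and removed before RNA was extracted. There were 2 libraries of the control genotype and 2 of the Ovol2-deficient genotype, with no added treatment in either group. Ovol2 encodes a zinc-finger transcription factor of epithelia. Which allele or Cre driver the deficient cells carried, and whether the libraries of a group came from separate animals, is not stated in the labels, so the p-values below measure only the spread between these libraries. The unit of the table is FPKM, fragments counted on a gene relative to transcript length and to library size, so levels of different genes can be set side by side.

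Dividing cells pass from G2 into mitosis when cyclin A and cyclin B activate the kinase Cdk1, and they leave mitosis when the APC/C, a ubiquitin ligase, marks the cyclins for destruction. The genes of this switch are known to be transcribed late in the cell cycle. They are repressed in resting cells by the DREAM complex and activated in G2 by the MuvB complex with B-Myb and then FoxM1. In the epidermis such division takes place mainly in the basal layer, and cells that leave it to differentiate stop dividing.

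These complexes and the factor NF-Y are known to act through a pair of promoter elements, the cell cycle genes homology region (CHR) and the CCAAT box. The mm10 promoter windows of RefSeq (GRCm38.p6), which run from 250 bases before to 50 bases after the annotated transcript start, held an entry for 7 of the 10 genes: Ccnb1, Ccnb2, Cdk1, Cdc20, Plk1, Aurka and Ube2c. Ccna2, Aurkb and Foxm1 had none. Of these windows 5 are shown from 150 bases before to 50 after the start, in the direction of transcription: Cdk1 because it held 2 CHR matches, Ccnb2 and Cdc20 for 1 match near the start, Ube2c for a match on the other strand, and Ccnb1 because it held none. Capitals mark the CHR letters (TTTGAA or TTCGAA, either strand) and the CCAAT letters (either strand). The positions are chr10:69352863-69353062, chr9:70421505-70421704, chr4:118437294-118437493 and chr13:100786437-100786636, all on the minus strand, and chr2:164769779-164769978 on the plus strand.
Cdk1: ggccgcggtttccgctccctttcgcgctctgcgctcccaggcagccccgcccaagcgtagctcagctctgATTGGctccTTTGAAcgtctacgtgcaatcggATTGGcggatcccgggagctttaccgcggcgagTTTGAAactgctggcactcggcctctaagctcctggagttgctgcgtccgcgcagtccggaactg
Ccnb2: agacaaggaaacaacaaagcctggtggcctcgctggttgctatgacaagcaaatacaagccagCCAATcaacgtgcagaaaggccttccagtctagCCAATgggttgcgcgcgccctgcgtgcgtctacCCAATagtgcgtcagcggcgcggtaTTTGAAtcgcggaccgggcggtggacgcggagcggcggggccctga
Cdc20: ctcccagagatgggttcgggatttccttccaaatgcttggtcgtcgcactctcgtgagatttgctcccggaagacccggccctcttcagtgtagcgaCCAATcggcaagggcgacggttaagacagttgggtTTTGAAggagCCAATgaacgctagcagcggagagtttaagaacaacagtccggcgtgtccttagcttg
Ube2c: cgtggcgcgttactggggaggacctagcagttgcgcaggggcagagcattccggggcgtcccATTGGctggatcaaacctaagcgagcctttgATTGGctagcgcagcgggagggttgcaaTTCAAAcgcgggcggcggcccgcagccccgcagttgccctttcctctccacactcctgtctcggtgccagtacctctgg
Ccnb1: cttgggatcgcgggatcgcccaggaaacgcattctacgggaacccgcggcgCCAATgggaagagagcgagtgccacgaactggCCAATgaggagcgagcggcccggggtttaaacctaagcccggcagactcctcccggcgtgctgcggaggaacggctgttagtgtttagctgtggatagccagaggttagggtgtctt

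The CHR letters were found in 6 of the 7 windows, that is in all but the window of Ccnb1, and the CCAAT letters in all 7. Over the first listed window of each of 27025 genes, 19.4% held a CHR match, 37.9% a CCAAT match and 7.7% both, and over the windows of the 8619 tested genes with an entry the shares were 13.3%, 38.9% and 5.78%. In Cdk1 the CHR matches began 71 and 15 bases before the start, in Cdc20 18 before, in Ube2c 29 before, and in Ccnb2 167 before and 5 after. In Plk1 and Aurka they began 31 and 33 bases after it. From the CHR match back to the nearest CCAAT match upstream there were 30 bases in Cdc20, 28 for the nearer CHR match of Cdk1, 23 in Ube2c, 20 for the nearer match of Ccnb2, 39 in Plk1 and 46 in Aurka. The letters TGTTTA, part of the forkhead motif, were found in 1 of the 7 windows, that of Ccnb1, and in 7.94% of the windows of tested genes. In the list of CHR and FOXM1 target genes described below, which was chosen for this element, 11 of 16 windows held a CHR match, and of the G1 and other cyclins and their kinases 0 of 10 did. A match describes the sequence only, and binding was not measured.

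**Figure D1:**
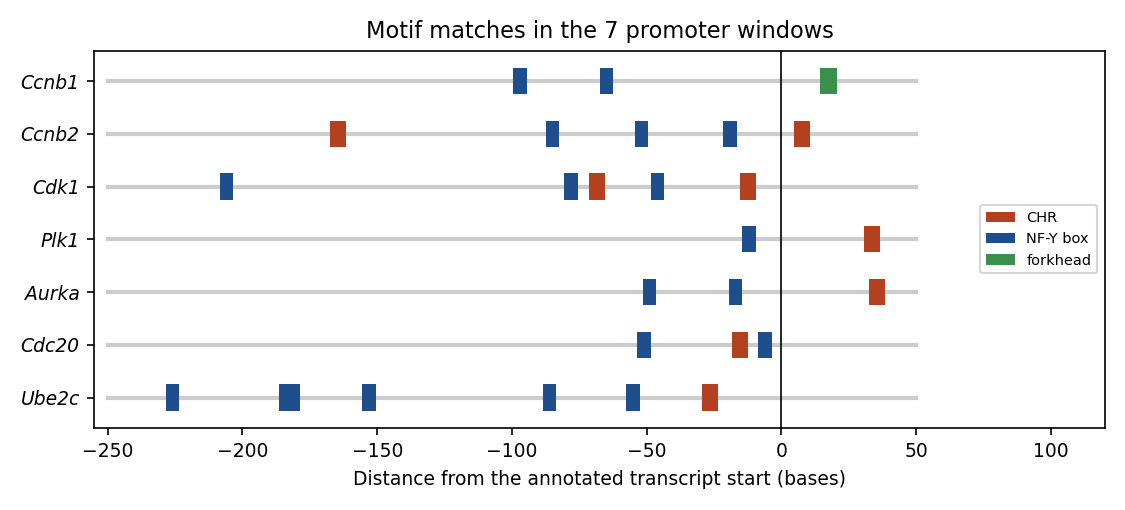
Positions of motif matches (coloured blocks) in the promoter windows of 7 genes, in bases from the annotated transcript start (x axis); grey lines are the windows, from 250 bases before to 50 after the start. CHR matches (red) lie within 71 bases of the start in 6 genes, with a further one in Ccnb2, and the NF-Y box is the CCAAT match (blue).

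Ovol2 itself (ENSMUSG00000037279.13, chromosome 2, 144305175 to 144332146, minus strand) stood at 2.68 and 2.14 (controls) against 1.45 and 0.941 (deficient). The log2 fold change was -0.64 (adjusted p = 0.129), so the check of the labels had the direction of the genotype but did not pass. In the authors' deposited table its log2 fold change was -0.36 (adjusted p = 0.441). Summed FPKM per library ran from 394320.7 to 422272.0, and the number of reads per library is not given in these files. Over all genes limma called 58 lower and 95 higher.

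All 10 mitotic regulators were at lower levels in both Ovol2-deficient libraries than in both controls, at 54.5% (Aurkb) to 69.4% (Cdc20) of the control mean. Fitted with limma on log2(FPKM + 1) over the 11350 genes whose mean FPKM reached 1, 6 of the 10 fell at an adjusted p under 0.05 and 0 rose: Foxm1, Ccna2, Ccnb1, Cdk1, Plk1 and Ube2c. The other 4, Ccnb2, Aurka, Aurkb and Cdc20, had adjusted p of 0.0512 to 0.072 and did not pass. Of all genes tested, 0.511% were called lower and 0.837% higher, while 24.0% had non-overlapping groups with the deficient one lower and 24.1% with it higher. The share of all genes at an unadjusted p under 0.05 was not counted. Counts at that cut, here and below, therefore have no background to be read against. The median log2 fold change was -0.68 over the 10 genes and -0.0014 over all genes tested. In the authors' deposited table of the same comparison all 10 had an adjusted p under 0.05 and were lower, against 2.10% called lower and 2.33% called higher among the genes with an adjusted p there. The calls made here depended on single libraries. They were lost without deficient library 1 and without deficient library 2, where nearly all lower calls over all genes were lost too. Without control 2 fewer of the 10 passed and without control 1 more did, as over all genes. The median of the 10 stayed between -0.79 and -0.59 with 1 library left out. In bulk RNA, fewer dividing cells and less of these transcripts per dividing cell cannot be told apart.

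**Figure D2:**
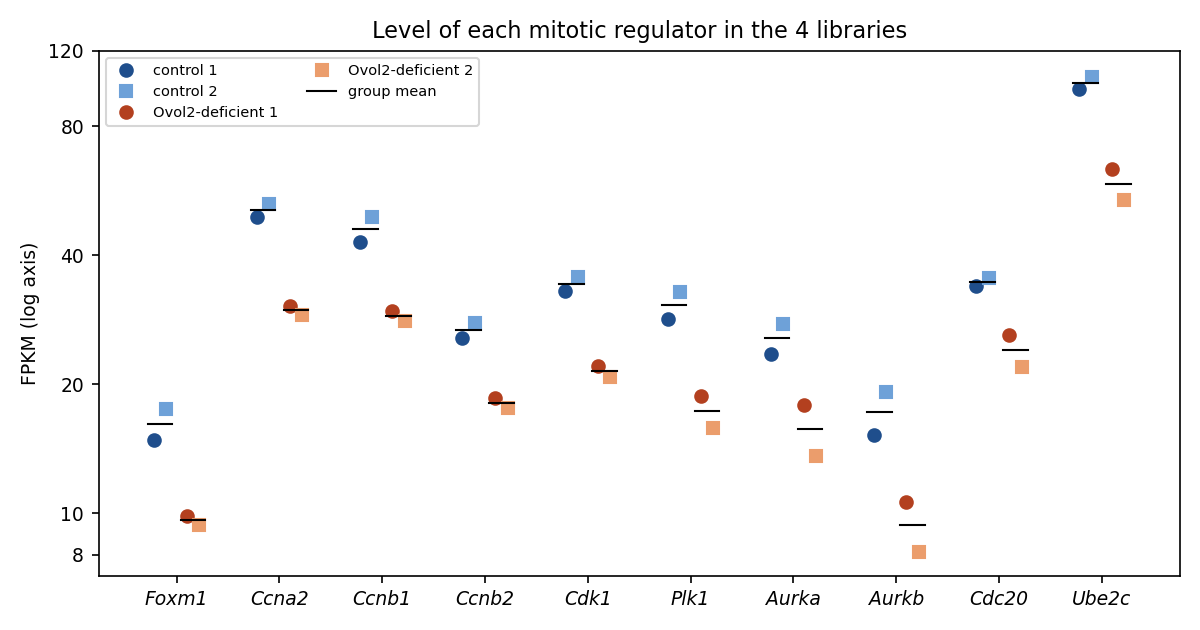
FPKM (y axis, log scale) of each of the 10 genes in the 2 control (blue) and 2 Ovol2-deficient (red and orange) libraries; black bars are group means. Each pair of deficient points lies below both control points, from Aurkb (9.39 against 17.2) to Ube2c (58.7 against 100.9).

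Foxm1, the forkhead factor that drives late cell cycle transcription (ENSMUSG00000001517.14, mm10, chromosome 6, 128362967 to 128376146, plus strand), stood at FPKM 14.9 and 17.5 (controls) against 9.88 and 9.37 (deficient). The deficient pair lay close together and apart from the controls, with means of 16.2 ± 1.86 and 9.63 ± 0.363 (SD, n = 2 per group, as for all means below). Foxm1 fell by 0.69 on the log2 scale (SE 0.11, adjusted p = 0.0466). Its annotated locus shares 691 bases with Tex52 on the same strand.

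Among the cyclins, Ccna2, which encodes cyclin A2 of S phase and early mitosis (ENSMUSG00000027715.9, chromosome 3, 36564865 to 36572150, minus strand), stood at 49.0 and 52.8 (controls) against 30.5 and 29.0 (deficient). It had the smallest adjusted p of the 10 (0.0353, log2 fold change -0.75, 95% interval -0.97 to -0.54). Ccna2 overlaps Exosc9 on the opposite strand over 863 bases, and as the labels state no strand for the library kit their reads there cannot be told apart. For Exosc9 itself the difference was -0.06 on the log2 scale (adjusted p = 0.867). Ccnb1, the main mitotic cyclin (ENSMUSG00000041431.16, chromosome 13, 100778650 to 100786570, minus strand), stood at 42.9 and 49.0 (controls) against 29.7 and 28.1 (deficient), and fell by 0.65 (SE 0.10, adjusted p = 0.0419). Its relative Ccnb2 (ENSMUSG00000032218.7, chromosome 9, 70407692 to 70421547, minus strand) stood at 25.7 and 27.8 against 18.6 and 17.6. The Ccnb2 groups were apart, but the log2 fold change of -0.54 (95% interval -0.76 to -0.31) did not pass (adjusted p = 0.0512). Both cyclin B genes have an annotated processed pseudogene elsewhere in the genome, so how their reads were divided is uncertain.

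Cdk1, the kinase that cyclins A and B activate (ENSMUSG00000019942.13, chromosome 10, 69335146 to 69352938, minus strand), stood at 33.1 and 35.6 (controls) against 22.1 and 20.8 (deficient). It fell by 0.65 (SE 0.09, adjusted p = 0.0392). Within each library Ccnb1 stood at a nearly constant multiple of Cdk1, 1.30 and 1.38 in the controls against 1.35 in each deficient library, and the groups overlapped. The ratio of Ccnb1 to Ccnb2 was 1.67 and 1.76 in the controls against 1.6 in each deficient library, and that of Ccna2 to Ccnb1 1.14 and 1.08 against 1.03 and 1.03. For both ratios the gap between the groups was smaller than the spread between the controls. No ratio was tested, since 2 libraries against 2 allow no two-sided exact permutation p below 0.333.

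Plk1, the Polo-like kinase of mitotic entry, spindle poles and cytokinesis (ENSMUSG00000030867.7, chromosome 7, 122159439 to 122169873, plus strand), stood at 28.4 and 32.9 (controls) against 18.8 and 15.8 (deficient). It fell by 0.79 (SE 0.12, adjusted p = 0.0419). Aurka, the Aurora kinase of centrosomes and spindle poles (ENSMUSG00000027496.15, chromosome 2, 172356190 to 172370535, minus strand), stood at 23.6 and 27.7 against 17.9 and 13.6. Its deficient libraries differed from each other by more than those of Foxm1 or the cyclins, and the log2 fold change of -0.68 (95% interval -1.02 to -0.33) did not pass (adjusted p = 0.072). Aurkb, the Aurora kinase of the chromosomal passenger complex (ENSMUSG00000020897.12, chromosome 11, 69045647 to 69051664, plus strand), stood at 15.2 and 19.2 against 10.6 and 8.13. It had the lowest estimate of the 10, a log2 fold change of -0.81, and the widest interval (-1.18 to -0.44), and did not pass (adjusted p = 0.0581). The ratio of Aurka to Aurkb was 1.55 and 1.44 (controls) against 1.68 and 1.67 (deficient).

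Of the exit factors, Ube2c encodes the ubiquitin-conjugating enzyme that starts chains on APC/C substrates (ENSMUSG00000001403.13, chromosome 2, 164769898 to 164778822, plus strand). It was the highest of the 10 in every library, at 97.7 and 104.1 (controls) against 63.7 and 53.7 (deficient), and fell by 0.78 (SE 0.11, adjusted p = 0.0392). Cdc20, the APC/C activator of the metaphase to anaphase step (ENSMUSG00000006398.15, chromosome 4, 118432901 to 118437352, minus strand), stood at 33.9 and 35.3 against 26.1 and 21.96. Its controls were close together and its deficient libraries further apart, and the log2 fold change of -0.51 (95% interval -0.77 to -0.26), the smallest in size of the 10, did not pass (adjusted p = 0.0701). On the opposite strand Ube2c shares 1662 bases with Tnnc2 (mean FPKM 0.408), Cdc20 shares 53 with Elovl1 (mean FPKM 58.05, log2 fold change -0.01) and Plk1 shares 1016 with Gm44985, and reads there cannot be told apart either. Relative to Cdc20, Ube2c stood at 2.88 and 2.95 (controls) against 2.44 and 2.45 (deficient).

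**Figure D3:**
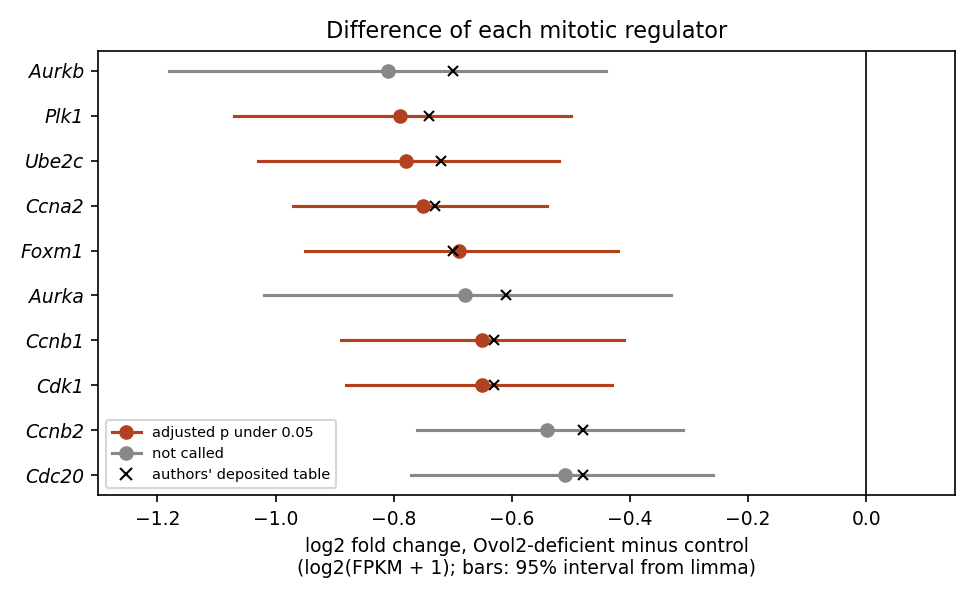
Log2 fold change (Ovol2-deficient minus control, on log2(FPKM + 1)) of each gene with its 95% interval from limma; red, adjusted p under 0.05; grey, not called; crosses, the authors' deposited table. All intervals lie below 0, overlap one another, and range in their centres from -0.81 (Aurkb) to -0.51 (Cdc20).

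The intervals of the 10 genes overlapped one another. As the genes share the same libraries, this overlap does not decide whether their changes differ, and the order of their changes was not tested. The order of their levels was much the same in both groups. In the controls it ran from Ube2c (mean FPKM 100.9 ± 4.54 SD) through Ccna2 (50.9 ± 2.65), Ccnb1 (45.9 ± 4.32), Cdc20 (34.6 ± 1.03), Cdk1 (34.3 ± 1.8), Plk1 (30.6 ± 3.17), Ccnb2 (26.7 ± 1.45), Aurka (25.6 ± 2.89) and Aurkb (17.2 ± 2.84) to Foxm1 (16.2 ± 1.86). The ranges of Cdc20 and Cdk1, of Ccnb2 and Aurka, and of Aurkb and Foxm1 overlapped there. The deficient order was Ube2c (58.7 ± 7.02), Ccna2 (29.8 ± 1.05), Ccnb1 (28.9 ± 1.15), Cdc20 (24 ± 2.92), Cdk1 (21.4 ± 0.86), Ccnb2 (18.1 ± 0.73), Plk1 (17.3 ± 2.11), Aurka (15.8 ± 3.06), Foxm1 (9.62 ± 0.363) and Aurkb (9.38 ± 1.78). Ccnb2 thus stood above Plk1 and Foxm1 above Aurkb there, each within the spread of the libraries. Neighbours whose ranges also overlapped were Ccna2 and Ccnb1, Cdc20 and Cdk1, and Plk1 and Aurka. The median percentile of the 10 among all tested genes was 74.4 and 77.4 (controls) against 62.2 and 61.8 (deficient). In the authors' deposited table the log2 fold changes were -0.74 (Plk1) to -0.48 (Cdc20 and Ccnb2), at mean normalized signals of 409.9 (Aurkb) to 1356 (Ccna2), and the adjusted p ran from 4.87e-07 for Ccna2 to 0.0238 for Ccnb2.

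The 10 genes also moved together between libraries of 1 group. Control 2 was above control 1 for 10 of 10, against 46.6% of all genes tested, and deficient library 2 was below deficient library 1 for 10 of 10, against 62.1%. Relative to the control mean of each gene on the log2 scale, the mean of the 10 was -0.08 and 0.08 (controls) against -0.59 and -0.78 (deficient). Aurkb (-0.64 and -0.99) and Aurka (-0.49 and -0.86) were spread most between the deficient libraries, and Ccna2 (-0.72 and -0.79) and Foxm1 (-0.65 and -0.72) least. Among the 8761 genes whose mean FPKM reached 5, the genes outside the 10 with the nearest profile over the 4 libraries were Anln, Nek2, Kif4, Kif11 and Sgol2. Their root mean square differences from the mean profile of the 10 were 0.018, 0.023, 0.035, 0.036 and 0.037. They were picked as the smallest, so the median of 0.489 over all 8761 is no test of their likeness. The 10 genes themselves differed from their mean profile by 0.045 (Ccnb1 and Foxm1) to 0.128 (Cdc20).

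Genes around this switch were described from 8 lists of its regulators, partners and neighbours in the cell cycle. Of their 115 tested genes 19 fell and 0 rose, beside 0.511% called lower and 0.837% higher of all genes tested. Scaling to keratinocyte markers, described below, gave 9 lower and 5 higher of the 115. It gave 49 lower and 936 higher over all 11360 genes tested under it. Calls among the 115 were lost without deficient library 1 and without deficient library 2, as were nearly all lower calls over all genes. Without control 2 there were fewer and without control 1 more, again as over all genes. In the list of CHR and FOXM1 target genes 9 of 20 fell (median log2 fold change -0.62). In all 20 the deficient pair was below the control pair, against 24.0% of all genes tested. The median of this list was -0.57 without control 2 and -0.68 without control 1. Of the 9, the smallest p belonged to Cdc25b, the phosphatase that activates Cdk1, at 38.7 and 37.6 in the controls against 22.6 and 20.2 (log2 fold change -0.81, adjusted p = 0.0353). Next came Top2a, the topoisomerase of chromosome condensation (-0.71, adjusted p = 0.0392), Prc1, which bundles midzone microtubules (-0.62, adjusted p = 0.0392), and Dlgap5, a spindle protein (-0.66, adjusted p = 0.0392). Cenpe (-0.53, adjusted p = 0.0618), Cenpf (-0.68, adjusted p = 0.0548) and Cdca2 (-0.63, adjusted p = 0.0926) did not pass.

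Among the Polo and Aurora partners and relatives 3 of 14 tested genes fell and 11 did not pass (median -0.52). Sgol1, the shugoshin that protects centromeric cohesion, stood at 8.51 and 9.16 (controls) against 4.95 and 4.75 (deficient) and fell by 0.75 (adjusted p = 0.0392). Cep55, of the cytokinetic bridge, fell by 0.61 (adjusted p = 0.0463) and Nek2, a centrosome kinase, by 0.67 (adjusted p = 0.0482). The Aurora A activators Bora (-0.45, adjusted p = 0.115) and Tpx2 (-0.40, adjusted p = 0.0967) and the passenger subunit Incenp (-0.53, adjusted p = 0.0772) did not pass. The other Polo kinases Plk2 and Plk3, known from stress responses, were chosen for mention after their values were seen. Both were listed higher in the deficient libraries without passing. Plk2 stood at 139.4 and 132.6 against 159.8 and 146.8 (log2 fold change 0.17, adjusted p = 0.417). Plk3 stood at 51.7 and 48.8 against 70.5 and 59.0 (0.36, adjusted p = 0.16). Both were called higher when scaled to keratinocyte markers, as were 936 of all 11360 genes tested under that scaling. The 3 genes of this list called lower in the main fit depended on single libraries.

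Of the 14 core subunits of the APC/C 0 were called by limma (median -0.10, range -0.33 to 0.26, with a median of 0.11 when scaled to keratinocyte markers). At an unadjusted p under 0.05 in limma 3 were lower, with no share of all genes counted at that cut. Anapc1, Anapc2 and Anapc4 were at -0.17, -0.09 and -0.05 (adjusted p of 0.453, 0.729 and 0.829). Of 11 cofactors, inhibitors and substrates 4 fell (median -0.62). These were Gmnn, the inhibitor of replication licensing (20.6 and 22.7 against 11.1 and 13.1, log2 fold change -0.79, adjusted p = 0.0392), Cdca3 (-0.69, adjusted p = 0.0392), Fbxo5, the APC/C inhibitor also called Emi1 (-0.81, adjusted p = 0.0466), and the spindle checkpoint kinase Bub1b (-0.70, adjusted p = 0.049994). The second APC/C activator Fzr1 (-0.34, adjusted p = 0.199), the chain-extending enzyme Ube2s (-0.40, adjusted p = 0.114) and the checkpoint gene Mad2l1 (-0.39, adjusted p = 0.115) did not pass. The median of these 11 was -0.44 without control 2 and -0.69 without control 1, and their calls depended on single libraries. The difference between core and cofactor genes was not tested.

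Of 16 regulators of the Cdk1 switch 2 fell and 14 did not pass (median -0.21). Besides Cdc25b this was Cks1b, a Cdk-binding subunit (72.8 and 69.4 against 49.4 and 48.2, log2 fold change -0.53, adjusted p = 0.0466). The inhibitory kinases Wee1 (-0.21, adjusted p = 0.461) and Pkmyt1 (-0.57, adjusted p = 0.106) and the phosphatase Cdc25a (-0.32, adjusted p = 0.191) did not pass. Of 12 MuvB and DREAM factors and their E2F partners, Rbl1, the p107 pocket protein, fell (14.0 and 15.7 against 8.83 and 9.22, log2 fold change -0.66, adjusted p = 0.0434). Mybl2, the B-Myb gene (-0.67, adjusted p = 0.0993), Lin9 (-0.01, adjusted p = 0.975) and Lin37 (-0.28, adjusted p = 0.438) did not pass, and the list median was -0.12, or 0.07 when scaled to keratinocyte markers. Without control 2 the medians of the first and second list were -0.18 and -0.10, and without control 1 they were -0.28 and -0.13. The calls in both lists depended on single libraries.

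Of 11 tested genes of G1 and other cyclins and their kinases 0 were called by limma, with 4 lower and 2 higher at an unadjusted p under 0.05 (median -0.02, or 0.18 when scaled to keratinocyte markers). The D-type cyclins Ccnd1 (145.7 and 178.6 against 164.4 and 155.2), Ccnd2 and Ccnd3 had log2 fold changes of -0.01, 0.05 and -0.03 (adjusted p of 0.97, 0.857 and 0.904). Of 20 S phase genes 2 fell (median -0.41), against 0.511% called lower of all genes tested. In all 20 the deficient pair was below the control pair, against 24.0% of all genes tested. Lig1, the ligase of replication, stood at 17.8 and 19.2 against 10.7 and 9.996 (log2 fold change -0.78, adjusted p = 0.0353), and the helicase subunit Mcm6 fell by 0.60 (adjusted p = 0.0482). Mcm2 (-0.33, adjusted p = 0.209), Mcm3 (-0.53, adjusted p = 0.108) and Mcm4 (-0.44, adjusted p = 0.068) did not pass. The S phase median was -0.37 without control 2 and -0.46 without control 1, and the S phase calls depended on single libraries. The authors' deposited table has more of these genes lower, beside 2.10% lower and 2.33% higher of its genes with an adjusted p. Lower there were 20 of the 20 CHR and FOXM1 target genes and 8 of the Polo and Aurora list, with 1 higher. So were 7 of the APC/C cofactors, 7 of the S phase genes and 3 of the Cdk1 switch regulators. The MuvB and DREAM list had 2, the G1 and other cyclins 1 and the core APC/C subunits 0.

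**Figure D4:**
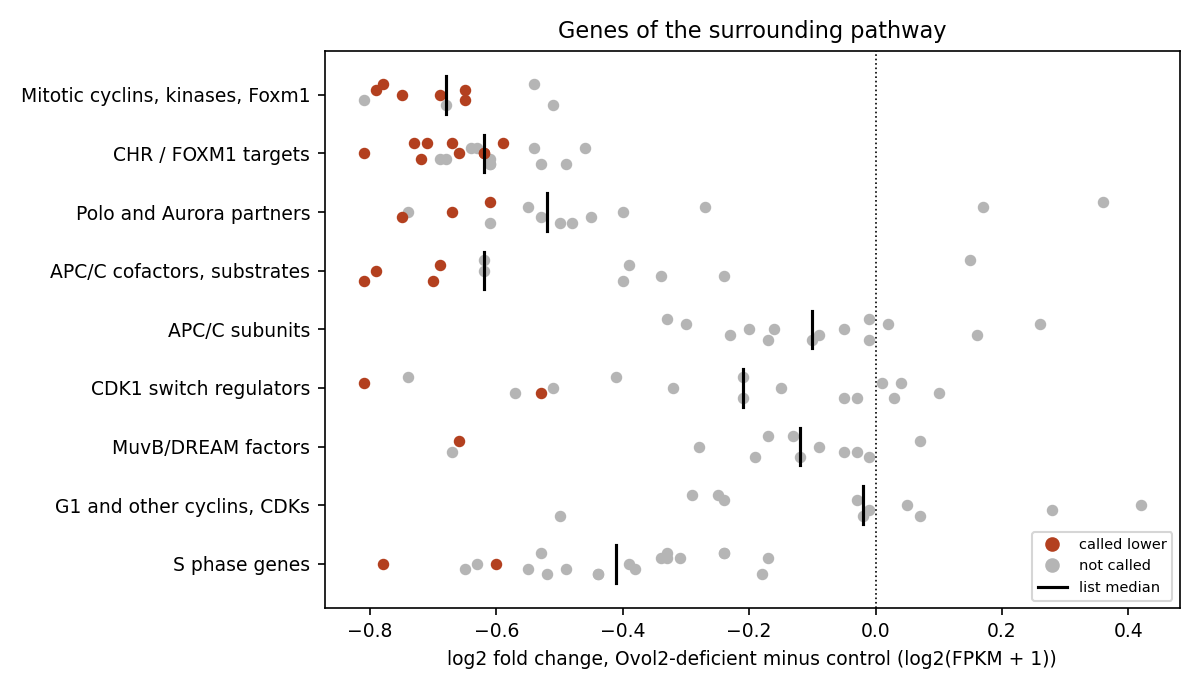
Log2 fold change (x axis, Ovol2-deficient minus control, on log2(FPKM + 1)) of each tested gene in the 10 mitotic regulators and 8 surrounding lists; red, called lower; grey, not called; black bars, list medians. Medians run from -0.68 for the mitotic regulators to -0.02 for the G1 and other cyclins, and no gene shown was called higher in this fit. Scaled to keratinocyte markers 5 were, as were 936 of all 11360 genes tested under that scaling.

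The levels of cell type markers are given beside these results. Their counts at an unadjusted p under 0.05 likewise have no share of all genes beside them. The summed FPKM of 12 keratinocyte markers, among them Krt5, Krt14 and Trp63 (log2 fold changes of -0.27, -0.17 and -0.20, none called), was 8351 and 7807 (controls) against 7535 and 6487 (deficient). Most of this sum was Krt5 and Krt14. Of these 12 markers 0 were called by limma and 5 were lower at an unadjusted p under 0.05. The deficient pair was below the control pair in 7, against 24.0% of all genes tested. The authors' deposited table has 3 lower, against 2.10% of its genes with an adjusted p. The median log2 fold change of the 12 was -0.25, or -0.20 without control 1 and -0.26 without control 2. Scaled to the keratinocyte marker sum, which moved the median of all genes by 0.19, the 10 genes had a median of -0.49, 0.68 below that of all genes, 6 of them were still called lower (with Aurkb in place of Foxm1), and all called genes split into 49 lower and 936 higher in place of 58 and 95. Of 15 fibroblast and feeder markers 12 were tested and 0 called by limma, with 11 higher at an unadjusted p under 0.05. In all 12 the deficient pair was above the control pair, against 24.1% of all genes tested. Col1a1, Col1a2 and Col3a1 were at log2 fold changes of 0.50, 0.36 and 0.44. Scaling to the keratinocyte markers gave 11 calls higher in this list, beside the 936 over all genes. The authors' deposited table has 6 higher, against 2.33% of its genes with an adjusted p. Calls in this list also changed with the libraries kept. The sum of the fibroblast and feeder markers was 275.1 and 253.7 (controls) against 341.4 and 362.9 (deficient), with Dcn at 0.896 to 1.003 and Lum at 0 to 0.0782. Of 9 melanocyte markers 6 were tested and 0 called by limma, 4 were higher at an unadjusted p under 0.05 and 4 were called when scaled to the keratinocyte markers, with Mitf, Dct and Pmel at 0.33, 0.48 and 0.36, and sums of 62.9 and 68.6 against 91.8 and 85.2.

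Of 12 listed markers of differentiating keratinocytes 10 were tested and 0 called by limma, with 4 higher at an unadjusted p under 0.05 and a median of 0.85. The median was 1.45 without control 1 and 0.30 without control 2, so it depended on single libraries. Scaling to the keratinocyte markers gave 8 calls higher, beside 936 higher of all 11360 genes tested under it. The sum of this list was 1257 and 773.7 (controls) against 1362 and 985.4 (deficient), so it was higher in library 1 of each group. Most of it was Sbsn and Krtdap (log2 fold changes 0.37 and -0.11). Krt1, Krt10 and Ivl stood at 9.71, 23.2 and 26.0 in control 1 and 1.77, 3.85 and 15.9 in control 2. They stood at 17.8, 43.9 and 36.9 in deficient library 1 and 7.0, 19.6 and 26.9 in deficient library 2 (log2 fold changes 1.17, 1.49 and 0.61, none called). The mitotic regulators were lower in control 1 than in control 2 but higher in deficient library 1 than in deficient library 2. Immune and endothelial markers were low: the sums were 3.51 to 15.4, Cd52 and Cd207 and Cdh5 and Cldn5 were listed at 0 in all 4 libraries, and Ptprc, Cd3e, Pecam1 and Kdr were each under 3. Most of the immune sum was Lyz2, a myeloid lysozyme gene, at 5.59 and 12.3 (controls) against 9.88 and 7.48 (deficient), and the groups overlapped. The part of each of these cell types in the levels of the mitotic regulators was not tested.

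**Figure D5:**
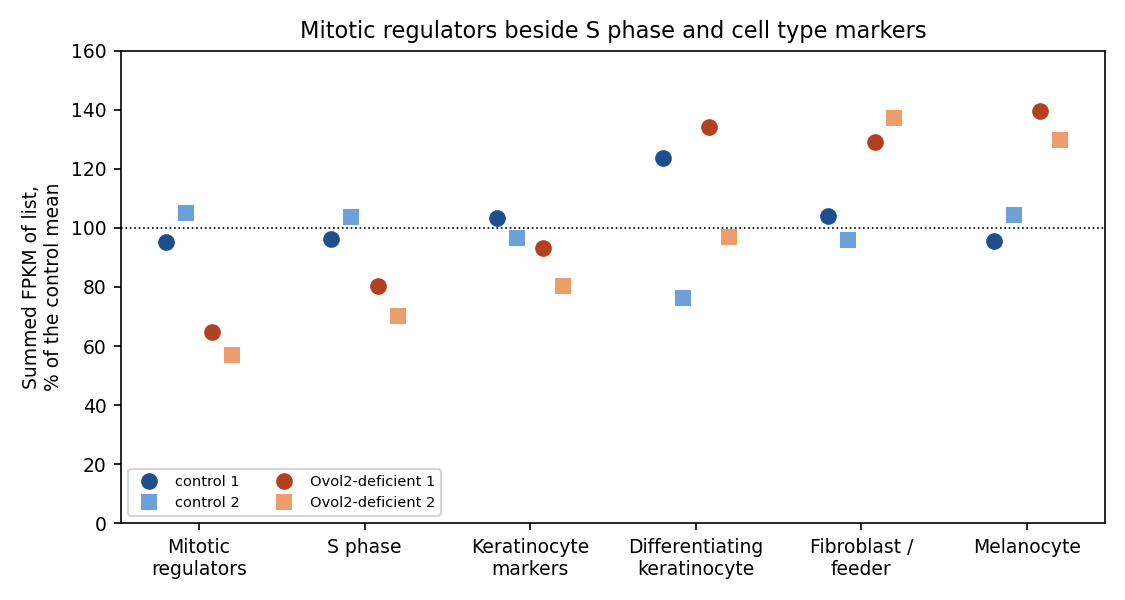
Summed FPKM of gene lists in each library as a percentage of the control mean of that list (y axis); blue, controls; red and orange, Ovol2-deficient. The mitotic regulators stood at 64.7% and 56.9% and the S phase genes at 80.3% and 70.1% in the deficient libraries, the keratinocyte markers at 93.3% and 80.3%, and the fibroblast and feeder markers at 129% and 137%.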

How the data were processed

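RNA from 2 control and 2 Ovol2-deficient keratinocyte libraries was sequenced after full-length cDNA amplification and tagmentation, per the labels' protocols. TopHat, HTSeq and build mm10 are named in the submitters' processing notes, with no version or order. No source used here names the annotation or the tool behind the FPKM values. The authors deposited FPKM for 4 libraries, and a comparison table that holds, per the file headers, a mean normalized signal, a log2 fold change, the score columns (standard error and test statistic) and p-values, raw and adjusted. Total counts are not given, so depth and counting error are unknown. The columns named mutant were assigned to the deficient group by that name, since its titles use another code, and their library numbers are those of the columns.

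From 24487 rows (1 repeated header line removed), 27 with date-like symbols were left out, rows sharing a symbol were summed, and 11350 genes whose mean FPKM reached 1 were analysed. The model was limma's (version 3.58.1, R 4.3.3) for log2(FPKM + 1), with no covariate (variance trend, Benjamini-Hochberg over all genes, threshold 0.05). It draws the variance of each gene toward a trend over all genes, so its p-values rest on more than a gene's own spread. Fold changes on this scale understate changes of low genes. The fit was run on values simulated from its own fitted variances, with changes larger than those of the 10 genes. Such values obey the model, so the run does not test the calls made here. Of the list members, Gsg2, Sgol1 and Emr1 were matched by older symbols. Gene positions are from GENCODE M21, promoters from RefSeq. The 10 genes and all lists were chosen with earlier results of these data known. Named are the 10 genes, Ovol2, in each pathway list up to 4 called genes by smallest p and the first 3 not called, the first 3 of each marker list, and the 5 nearest profiles. Named beyond that, after their values were seen, are genes overlapping the 10, Plk2, Plk3 and the markers Dcn, Lum, Lyz2, Cd207, Cldn5, Sbsn and Krtdap. The alternatives were another pseudocount, 2 filters, 2 scalings, 2 variance models, a replicate block and each library left out.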

Additional observations from a re-analysis of the deposited data

How the results depend on the processing

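All 120 log2 fold changes of the 10 genes under 12 alternatives were below 0, but most could not have turned. The filters, variance models and replicate block leave a gene's fold change as it was. Both deficient libraries lay below both controls for each gene, so neither another pseudocount nor 1 library left out could turn the sign. Only quantile normalization (median -0.69) and scaling to the keratinocyte markers (median -0.49) could have done so. Of the 120, 36 lost and 15 gained a call. The count of members called lower, 6, was 0 without a filter on low values, 0 under quantile normalization and 0 in limma without the trend. Under these settings no gene at all was called lower, so the 0 is not particular to the 10. With robust empirical Bayes the count was 10, beside 208 lower over all genes. Under each of these alternatives all 10 had an unadjusted p under 0.05 in limma. The count of members called lower also moved with 1 library left out, as did that over all genes. The count of all genes called, 153, was 3 without a filter, 267 at a mean FPKM of at least 5, 5 under quantile normalization, 985 when scaled to the keratinocyte markers, 6 without the trend, 461 with robust empirical Bayes, and 10 to 397 with 1 library left out. The median of the 10 was -0.49 when scaled to the keratinocyte markers, and -0.79 to -0.59 with 1 library left out. Why the counts moved was not tested. A looser or stricter filter changed the number of genes adjusted over from 11350 to 17605 or 8761, and also the genes that set limma's variance trend.

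With the replicate number as a replicate block, 518 genes and 9 of the 10 were called, as were 7 of the differentiating keratinocyte markers (higher, against 0 without the block). The samples share only a number: library 1 of both groups deviated together over all genes (r = 0.220, taken across genes and so no measure over replicates), while for 0 of the 10 did the deviations have the same sign.

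With 2 libraries per group and no counts, the spread is estimated from few values and counting error is unknown. A library left alone in its group is assumed to vary like the others.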
